A study of Caenorhabditis elegans with 4 samples.

Results

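The RNA polymerase II (Pol II) peaks described here lie in a pair of broad domains of chromosome IV of Caenorhabditis elegans that are known to hold most genes for piRNAs, called 21U-RNAs in this animal. Members were chosen by position alone. A peak belonged to the left domain when its midpoint lay from 4500000 to 7000000 (2.5 Mb) and to the right domain when it lay from 13500000 to 17200000 (3.7 Mb), in coordinates of WormBase build WS190, which are used throughout. The left domain held 262 peaks and the right domain 231, together 493 of the 1906 peaks on IV and of the 10731 peaks in the list. The boundaries are rounded positions of broad domains and not edges found in these data.

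21U-RNAs are small RNAs of the germ line that guide the Piwi protein PRG-1 to foreign and unwanted transcripts. Most are made one by one: each gene has its own small promoter, Pol II makes a short capped precursor from it, and the precursor is trimmed to the mature length. These genes lie in large numbers between and within ordinary protein-coding genes, so Pol II in the domains can come from either kind of gene. In the RefSeq gene table of the later assembly WBcel235, 14714 of 15363 genes annotated as piRNA (95.8%) were on IV. Positions in that table belong to another build and were not set against the peaks, so no peak is assigned to a piRNA gene or to any other gene.

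Chromatin immunoprecipitation with sequencing (ChIP-seq) was carried out on whole wild-type hermaphrodites of strain N2 at larval stage L4, when the germ line is expanding and sperm are being made. The worms were raised at 20 °C in liquid culture and fixed with 2% formaldehyde. The labels give 2 ChIP samples, with the monoclonal antibody 8WG16 against the C-terminal repeats of the largest Pol II subunit, and 2 input samples of unselected chromatin, although the attached protocol text speaks of embryos and of GFP. The deposited list combines the samples and gives 1 q-value (a p-value adjusted for multiple testing) per peak, so no spread between replicates can be given, the sequencing depth is unknown, and no test between regions was possible. Whole animals were used, so germ-line and somatic Pol II cannot be told apart.

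The right domain was sparse in Pol II peaks relative to the rest of IV, and the left domain was slightly below it. The left domain had 105 peaks per Mb, the right domain 62.4, and the remaining 11.3 Mb of IV 125. Relative to the rest of IV the density was 0.836-fold in the left domain (95% interval 0.730 to 0.955) and 0.498-fold in the right domain (0.432 to 0.573). The interval of the left domain included 1 with the boundaries of both domains moved 250 kb outward (0.903, 0.799 to 1.02). It did so too among the decile of the list with the smallest q-values (0.737, 0.467 to 1.12). The right domain took up 21.2% of the span of IV and held 12.1% of its peaks (exact binomial interval 10.7 to 13.7%), whereas the left domain took up 14.3% and held 13.7% (12.2 to 15.4%). Intervals cover counting error only and treat peaks as independent, which clustered peaks are not, so they are too narrow to serve as a test.

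The length bound by Pol II followed the same order, with a smaller deficit in the left domain. Peaks covered 218 kb or 8.71% of the left domain, 184 kb or 4.98% of the right domain and 9.41% of the rest of IV. These shares gave ratios to the rest of IV of 0.926 and 0.529. The ratio of the left domain rested on where the edges were set. With the boundaries of both domains moved 250 kb outward, which also changed the rest of IV, it was 1.04. The stretch of IV between the domains was the densest part of the chromosome, with 135 peaks per Mb and 10.3% of its length in peaks. The stretch left of the left domain had 114 peaks per Mb and 8.35% covered, close to the left domain itself (ratio of densities 0.918, interval 0.788 to 1.07). The tip beyond the right domain is only 0.274 Mb long and had 24 peaks.

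Within each domain the peaks were very unevenly spread. Over the 25 bins of 100 kb in the left domain the number of peaks ran from 0 to 21, with a median of 10 (mean 10.5, SD 5.41). Over the 37 bins of the right domain it ran from 0 to 22, with a median of 5 (mean 6.24, SD 5.17). The 112 full bins in the rest of IV held 0 to 28 peaks, with a median of 12 (mean 12.6, SD 6.31). The ranges overlap almost wholly. Thin bins were commoner in the right domain: 16 of its 37 bins (43.2%) held fewer than 5 peaks, against 2 of 25 (8%) in the left domain and 9 of 112 (8.04%) in the rest of IV. In the stretch left of the left domain 7 of 45 bins (15.6%) did so. At the other end, 2 bins of the right domain (5.41%), 7 of the left domain (28%) and 40 of the rest (35.7%) held at least 15.

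**Figure D1:**
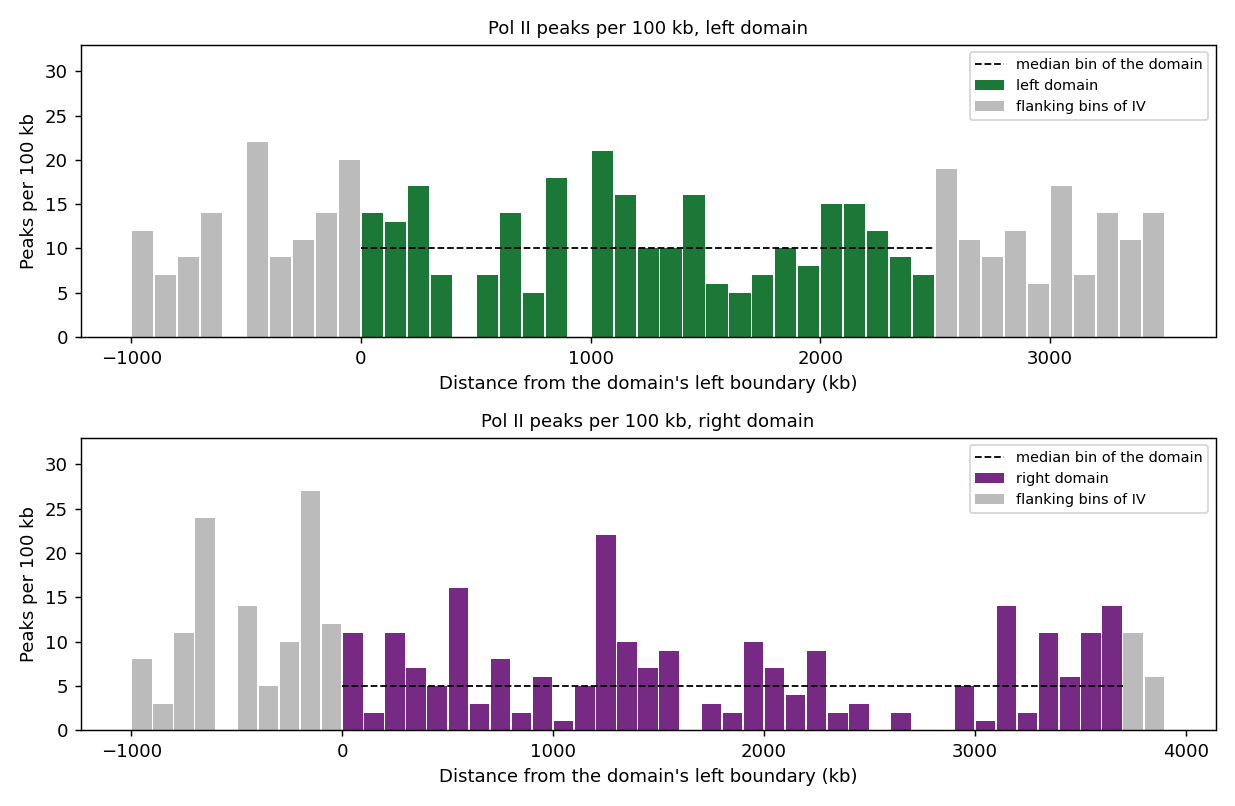
Number of Pol II peaks in bins of 100 kb, against the distance in kb from the left boundary of the left domain (top) and of the right domain (bottom). Coloured bars are bins of the domain, grey bars are the bins of IV next to it, gaps in the row of bars are bins with 0 peaks, and the dashed line is the median bin of the domain (10 in the left and 5 in the right). The right domain shows single bins of up to 22 peaks between long thin stretches.

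The densest bin of the left domain, from 5500000 to 5600000, had 21 peaks and 15.1% of its length in peaks, and the bin to its right reached 27.0% with 16 peaks. Empty bins in this domain were the 2 from 4900000 to 5000000 and from 5400000 to 5500000. In the right domain the densest bin, from 14700000 to 14800000, had 22 peaks and 20.6% covered. Its 4 empty bins began at 15100000, 16000000, 16200000 and 16300000. The other bins of IV included only 2 with no peak among 112.

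Each domain was also divided into 5 equal pieces, of 500 kb on the left and 740 kb on the right. From left to right, density in the left domain was 102, 88, 146, 72 and 116 peaks per Mb. Its middle piece was also the best covered, with 14.7% of the length in peaks, while the piece to its right had 5.26%. In the right domain the densities were 83.8, 71.6, 58.1, 16.2 and 82.4 peaks per Mb. A single piece therefore stood far below the others. Without it the remaining 219 peaks of the right domain had 0.590 times the density of the rest of IV, and the ratio of covered length was 0.632. The deficit was thus smaller without that piece and did not rest on it alone.

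That thin piece, from 15720000 to 16460000, held 12 peaks and had 1.08% of its length covered. Its strongest peak, from 16172375 to 16173461, had a q-value of 4.41e-34, or a strength of 33.4 when strength is given as −log10 of the q-value. The next was the peak from 15930881 to 15932151, with a strength of 14.5. The other 10 had strengths from 2.61 to 9.0, and the widest of the 12 was 1271 bp. The peak with a strength of 33.4 sat between the longest stretches of IV with no peak, and with its single close neighbour it was the only listed Pol II binding over 483 kb, from 15932152 to 16414707.

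The longest stretches of IV without Pol II peaks lay in the domains, most of them in the right one. The 3 longest on IV were all in the right domain: 240.2 kb from 15932152 to 16172374, 239.6 kb from 16175139 to 16414707, and 219.6 kb from 15050186 to 15269804. The next longest, 182 kb, ran from 4880974 to 5063181 in the left domain, where 135 kb from 5397547 to 5532939 and 78.3 kb from 5858701 to 5936986 followed. Of the 13 stretches of at least 100 kb on IV, 7 lay in the right domain and 2 in the left, while the longest outside the domains was 116 kb. Such stretches took up 31.9% of the right domain, 12.7% of the left domain and 3.84% of the rest of IV. The right domain was also ranked with the 6 windows at the same distance from a chromosome end on II, III and V. It came 4 of 7 in the number of such stretches (7, windows 0 to 13, median 5.5). By its longest stretch it was also 4 of 7 (240223 bp, windows 87140 to 350140 bp). By the share of its length in gaps of at least 20 kb it was 2 of 7 (81.4%, windows 46.5 to 82.6%). Against windows of 2.5 Mb tiled along II, III and V the left domain was ordinary, coming 10 of 20 in the number of such stretches. It was also 10 of 20 in the share of its length in gaps of at least 20 kb (62.4%, window median 62.2%). Among the 6 windows matched for position the left domain ranked higher. It was 2 of 7 in the number of such stretches (2, window median 0.5) and in the longest (182208 bp, window median 94638 bp). In the share of its length in gaps of at least 20 kb it was 3 of 7 (window median 47.5%).

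Where peaks were present they lay close together, in the thinly bound right domain too. The median gap between neighbours was 1739 bp in the left domain (95% interval 1284 to 2026), 1562.5 bp in the right domain (986 to 2251) and 1838 bp in the rest of IV (1603 to 2055). The median gap of the right domain was therefore not longer than elsewhere, although its mean gap was 15276 bp against 8603 bp in the left domain and 7156 bp in the rest. Gaps under 1 kb made up 43.9% of the gaps in the right domain (101 of 230, exact interval 37.4 to 50.6%), 39.8% in the left domain (104 of 261, 33.9 to 46.1%) and 37.7% in the rest of IV (532 of 1410, 35.2 to 40.3%). The intervals overlap, and whether the excess in the right domain is larger than the counting error was not tested. Under 2 kb the shares were 53.9%, 55.9% and 52.1%.

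**Figure D2:**
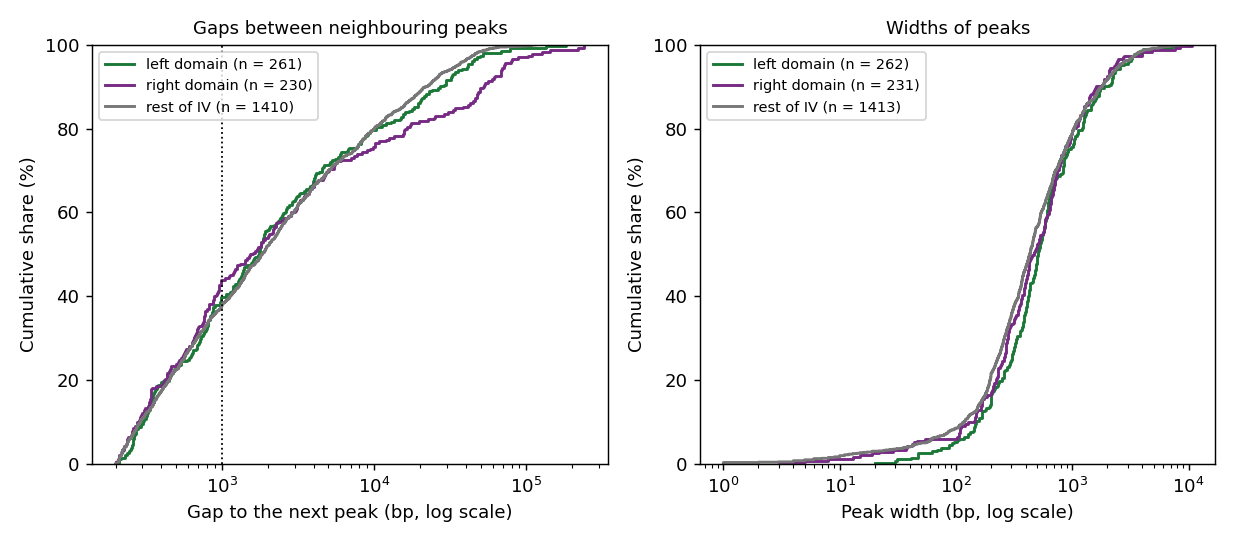
Cumulative share, in percent, of gaps between neighbouring peaks (left, bp on a log axis) and of peak widths (right, bp on a log axis) for the left domain, the right domain and the rest of IV. The dotted line marks 1000 bp. At that line the right domain is highest, with 43.9% of its gaps under 1 kb, against 39.8% in the left domain and 37.7% in the rest. Above about 5 kb the right domain has the largest share of long gaps. The width curve of the left domain runs to the right of that of the rest, with medians of 505 and 431 bp.

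Chains of neighbouring peaks were joined where the gap was under 1 kb. They restate the same short gaps by peak and are not separate evidence of grouping. In the right domain 154 of 231 peaks (66.7%) belonged to 53 chains of at least 2 peaks, against 153 of 262 (58.4%) in 49 chains in the left domain and 56.6% in the rest of IV. There were 14.3 chains per Mb on the right, 19.6 on the left and 23.8 in the rest of IV. The largest chain of the left domain held 9 peaks from 5650614 to 5668265 and was 83.5% covered, and its strongest peak had a q-value of 5.74e-116. It was followed by 7 peaks from 6653587 to 6661306 and 6 peaks from 5082970 to 5092640. The right domain had 7 peaks from 14218803 to 14225223, of which the strongest reached only 10.6, then 6 peaks each from 17113829 to 17121310 and from 14050596 to 14056995.

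Peaks of the left domain were somewhat wider than those in the rest of IV, and the interval of the right domain overlapped both. The median width was 505 bp in the left domain (95% interval 463 to 575), 465 bp in the right domain (397 to 581) and 431 bp in the rest of IV (403 to 457). The intervals of the left domain and the rest do not overlap (ratio of medians 1.17), and the stretch left of the left domain had 400.5 bp (368 to 443). Against windows of equal length tiled along II, III and V, the median of the left domain came 7 of 20 (337 to 599.5 bp). It came 5 of 20 with windows tiled from the other end and 3 of 7 among those matched for position. The width of its peaks was therefore within the range of the other chromosomes. Widths ran from 20 to 7968 bp on the left and from 3 to 10720 bp on the right. Peaks of at least 2 kb were 9.92% of the left domain (26 peaks, 6.59 to 14.2%), 7.36% of the right (17 peaks, 4.35 to 11.5%) and 8.28% of the rest of IV (6.90 to 9.84%). Per Mb this was 10.4 such peaks in the left domain and 10.4 in the rest, but 4.59 in the right domain. They carried 38.6% of the covered length on the left and 35.5% on the right. Very narrow peaks, under 100 bp, numbered 14 in each domain, which was 5.34% (2.95 to 8.80%) and 6.06% (3.35 to 9.96%) against 8.56% (7.16 to 10.1%) in the rest.

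The median strengths had overlapping intervals. Median strength was 5.59 in the left domain (95% interval 4.96 to 6.88), 5.06 in the right domain (4.43 to 5.44) and 5.58 in the rest of IV (5.22 to 5.99). A strength of at least 10 was reached by 32.1% of peaks on the left (26.5 to 38.1%), 27.7% on the right (22.0 to 34.0%) and 29.7% of the rest (27.3 to 32.2%). The q-values also reflect how deeply the samples were sequenced and how wide a region is, and they serve here only to rank peaks within this list.

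Very strong peaks were fewer per Mb in both domains than in the rest of IV. A strength of at least 50 was reached by 8 peaks of the left domain (3.05%, 1.33 to 5.93%) and 11 of the right (4.76%, 2.40 to 8.36%), against 83 in the rest of IV (5.87%, 4.71 to 7.23%). Per Mb these were 3.20, 2.97 and 7.36 peaks, so the domains had 0.435 and 0.404 times the number of the rest. For peaks of any strength the ratios were 0.836 and 0.498. The intervals of both shares overlap that of the rest, and the value of the left domain rests on 8 peaks. Of the 50 strongest peaks on IV, 4 lay in the left domain (8%, 2.22 to 19.2%) and 3 in the right (6%, 1.25 to 16.5%). Both intervals include the share that the domain holds of all peaks on IV (13.7% and 12.1%), so a shortage of the very strongest beyond that of peaks in general was not detectable. Among the 200 strongest, the counts were 26 (13%, 8.67 to 18.5%) and 18 (9%, 5.42 to 13.9%).

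At equal width the intervals of the domains and of the rest of IV overlapped in 5 of 6 classes. In the class from 250 to under 500 bp, median strength was 4.75 on the left (4.40 to 5.41), 4.86 on the right (4.18 to 5.15) and 4.96 in the rest (4.58 to 5.27). From 100 to under 250 bp the values were 2.77 (2.54 to 3.08), 2.82 (2.37 to 3.08) and 3.31 (3.11 to 3.51), the only class without overlap, with both domains below the rest. For peaks of at least 2 kb they were 37.5 (26.8 to 46.2), 38.0 (27.3 to 62.8) and 52.2 (43.0 to 66.3), with overlapping intervals. From 1000 to under 2000 bp the left domain had 12.3 (7.68 to 15.4), the right 16.1 (12.4 to 21.3) and the rest 17.2 (14.3 to 19.3). From 500 to under 1000 bp the left domain was the highest at 9.21 (6.88 to 10.5) and the right the lowest at 6.58 (5.15 to 9.19), with 7.84 (7.26 to 8.91) in the rest. Below 100 bp the medians were 2.97 in the left domain and 2.86 (2.60 to 3.23) in the rest, and the interval of the right domain, 2.16 to 3.44, overlapped that of the rest. Class sizes in the domains ranged from 14 to 74 peaks.

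**Figure D3:**
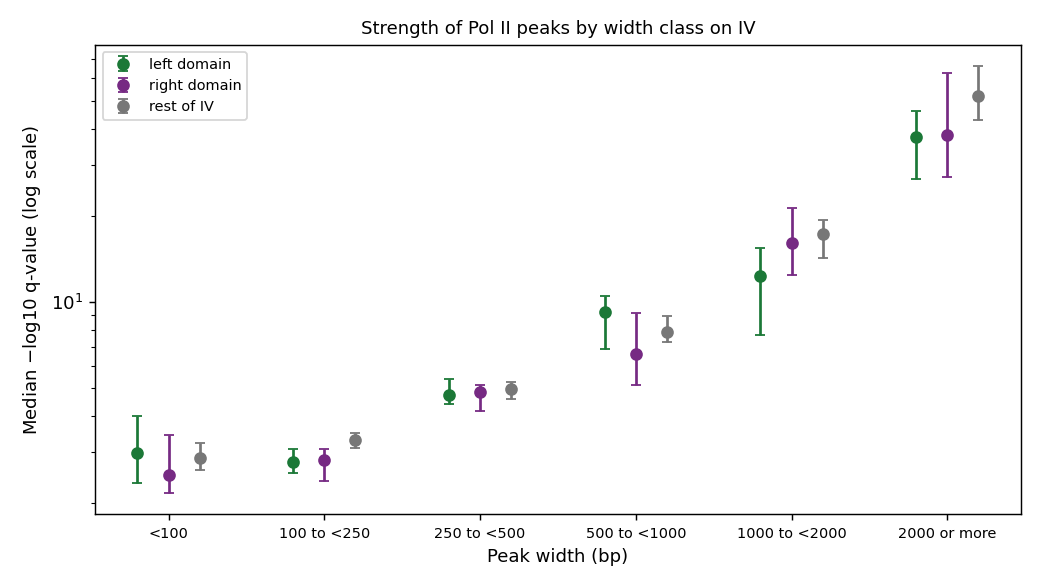
Median strength (−log10 q-value, log axis) of Pol II peaks on IV in 6 classes of peak width in bp, for the left domain, the right domain and the rest of IV. Points are medians and bars are 95% order-statistic intervals, which cover counting error only; the bars overlap in each class except from 100 to under 250 bp, where both domains lie below the rest.

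The strongest peak of the left domain, from 5601077 to 5609044, was also its widest at 7968 bp, with a q-value of 6.18e-183, and ranked 11 on IV. It was followed by 4514656 to 4517238 (q = 8.13e-140), 5650614 to 5657770 (q = 5.74e-116), 6790424 to 6793685 (q = 1.05e-106) and 4650541 to 4653563 (q = 2.60e-92). The third of these, 7157 bp wide, opens the chain of 9 peaks. Together with the strongest it lies within 56.7 kb in the middle piece of the domain. The remaining one of its 3 widest peaks, 6908060 to 6913507 (5448 bp), was far weaker, with q = 1.64e-27.

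In the right domain the strongest peak ran from 14790081 to 14798575 (8495 bp) with a q-value of 6.21e-196 and ranked 9 on IV. After it came 14032517 to 14034847 (q = 2.08e-174), 14984929 to 14986923 (q = 3.29e-164), 14069623 to 14077232 (7610 bp, q = 6.25e-84) and 14763315 to 14765587 (q = 1.64e-67). The widest peak of the domain, and of IV, was 10720 bp long from 15036991 to 15047710, with q = 1.98e-63. The 5 strongest and the 3 widest all ended at or before 15047710, in the left part of the domain.

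Next to the boundaries, the first peak inside the left domain was 4511458 to 4513776 (strength 51.9) and the last before it 4489727 to 4489787 (3.45). At its right edge the last inside was 6974209 to 6974513 (5.56) and the first outside 7011896 to 7012095 (2.07). Around the left edge of the right domain the nearest peaks were 13499766 to 13499917 outside (3.71) and 13500313 to 13500703 inside (7.84), only 395 bp apart. At the right edge they were 17197638 to 17197866 inside (2.76) and 17249678 to 17250082 outside (22.9). No listed peak crossed a boundary.

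Windows of equal length on the autosomes II, III and V place these values. The left domain came 9 in the order of 20 by density, counting itself and 19 windows of 2.5 Mb that ran from 32.8 to 164 peaks per Mb with a median of 98.8, and it came 8 by covered length. The right domain came 10 of 13 by density among windows of 3.7 Mb that ran from 39.2 to 160 peaks per Mb with a median of 103, and 11 by covered length. Below it in density were 1 window on II, at 61.1, and 2 on V, at 39.2 and 42.4 peaks per Mb. Neither domain therefore lay outside the range of the other chromosomes. Windows along a chromosome are not replicates, so these places carry no p-value.

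The right domain is a chromosome arm, and arms of C. elegans autosomes are known to be poorer in broadly expressed genes than the centres. Windows at the same distance from the right end had 119.7 peaks per Mb on II, 131 on III and 51.9 on V, against 62.4 in the right domain. At the same distance from the left end the windows had 56.8 on II, 118 on III and 35.7 on V, and the matching window of IV itself had 110. The right domain thus held fewer peaks than the opposite arm of IV, the right arm of II and both arms of III, and more than the left arm of II and both arms of V. Its position on an arm and its piRNA genes cannot be told apart in these data. For the left domain, windows at the same distance from either end had 145 and 134 peaks per Mb on II, 156 and 154 on III, and 83.6 and 57.6 on V, against 105. The window of IV itself at the same distance from the right end had 132.

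By the share of short gaps the right domain came above the windows on II, III and V, and some other parts of IV were high too. Its 43.9% of gaps under 1 kb was above all 12 windows of 3.7 Mb, which ran from 27.7 to 37.3%, and its median gap of 1562.5 bp was below theirs (1824 to 5444 bp). With windows tiled from the other chromosome end the range was 25.6 to 37.6%, and in the windows matched for position it was 26.7 to 40.2%. A shorter median gap, 1524 bp, was found in 1 of those matched windows. At the same time 81.4% of the right domain lay in gaps of at least 20 kb, the next to highest share after a window on V at 84.1%. The left domain, at 39.8%, was level with the highest of the 19 windows of 2.5 Mb (39.6%), and a window of the other tiling was higher at 41.5%. A high share was not confined to the domains: the rest of IV, at 37.7%, was also above all 12 windows of 3.7 Mb in either tiling, the window of IV at the matching distance from the left end had 39.2%, and the stretch left of the left domain had 40.9%. For gaps under 500 bp that stretch, at 24.6%, was above the right domain at 23.5%. Other parts of IV were not high in gaps under 1 kb. The stretch between the domains had 36.3%, within the range of the 3.7 Mb windows in both tilings. The tip beyond the right domain had 21.7%. The rest of IV, at 37.7%, was below the highest of the windows matched for position (40.2%).

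**Figure D4:**
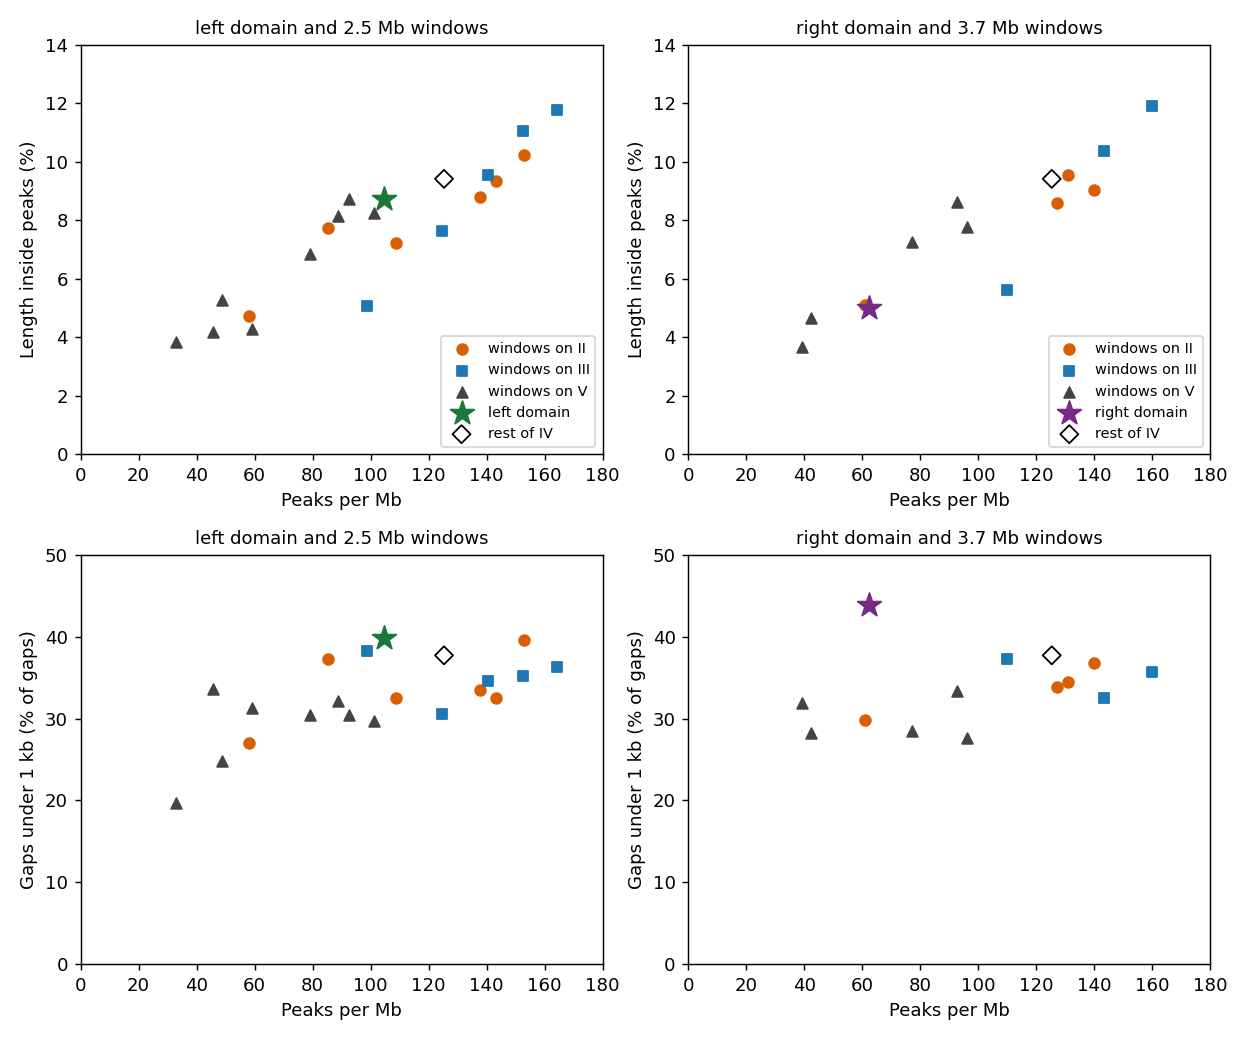
Length inside peaks in percent (top) and gaps under 1 kb as a percentage of gaps (bottom) against peaks per Mb, for the left domain with 19 windows of 2.5 Mb (left) and the right domain with 12 windows of 3.7 Mb (right) on chromosomes II, III and V. Stars are the domains and the diamond is the rest of IV, a longer region. The right domain lies among the sparse windows in density and covered length and above all of them in its share of short gaps. By that share the rest of IV is also above the 12 windows of 3.7 Mb, but not above all 19 windows of 2.5 Mb.

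The share of very strong peaks in the left domain was at the low end of these windows. Its 3.05% of peaks with a strength of at least 50 was below all 19 windows, of which the lowest had 3.24% and the highest 8.56%. With the other tiling 1 window was lower, at 2.37%, and the windows matched for position ran from 4.76 to 6.94%. By the number of such peaks, 8, it came 14 of 20. Its peaks of at least 2 kb, 26 in number, came 4 of 20. The low place was not found at a lower limit: peaks in the strongest decile of the list, with a strength of at least 29.1, made up 9.92% of the left domain, 9 of 20 and near the window median of 9.62%. In the right domain 4.76% of peaks had a strength of at least 50, within the range of its windows (2.71 to 9.04%), and its 17 peaks of at least 2 kb came 12 of 13.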

How the data were processed

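ChIP-seq of Pol II in L4 worms was available as 1 list of peaks over 4 combined samples, 2 ChIP and 2 input. Per the file headers and source field, the authors called peaks with PeakSeq on WormBase WS190 and deposited a q-value for each peak; the version, aligner and read filters are not given in the sources used here. The largest q-value was 0.00998 and the smallest gap between peaks 200 bp. A limit on the q-value and joining of close regions both affect how many peaks are listed and how wide they are. Depth is unknown.

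Width was end minus start plus 1, strength −log10 of the deposited q-value, and a gap the number of bases between neighbouring peaks of a region. The span of IV ended with its last peak, at 17474464. Windows on II, III and V were tiled from position 1 without overlap, and an incomplete last window was dropped. Intervals are exact binomial (Clopper-Pearson) for shares, carried over to density ratios, and order-statistic intervals for medians. Functions were tested on simulated lists. Members and lists were chosen with earlier results of these data known. Peaks were named by rule: in each domain the 5 smallest q-values, the 3 widest, the 3 longest gaps and largest chains, the densest and emptiest bins and the peaks beside the boundaries; further positions were chosen after their values were seen. Without a genome of WS190, no sequence is shown. Figures were drawn with matplotlib 3.10.9 and values computed with scipy 1.17.1, pandas 2.3.3 and numpy 2.4.6 under Python 3.11.15.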

Additional observations from a re-analysis of the deposited data

How the results depend on the processing

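Over 95 combinations of a result and an alternative, 71 left the value within the interval of the reported value. For covered-length ratios and places among windows, which have no interval, the limit was 1.5 times. Another 23 moved outside, and 1 crossed to the other side of 1. That was the covered-length ratio of the left domain, 0.926, which was 1.04 with the boundaries of both domains 250 kb outward. The 71 include membership by any overlap, which could not change any value because no listed peak crossed a boundary. The density ratio of the left domain ranged from 0.737 to 0.903 and that of the right domain from 0.364 (strongest decile of the list) to 0.590 (without its thinnest piece). With q-values of at most 0.001, median width was 586 bp on the left and 630 on the right and median strength 7.16 and 7.69. In the strongest decile the widths were 2288 and 2125 bp, the strengths 42.6 and 58.6, and the shares of gaps under 1 kb 8% and 5.56%, on 26 and 19 peaks. Both settings select on q, which by construction raises strength. Joining peaks closer than 500 bp gave short-gap shares of 22.3% and 26.7% and a median width of 601 bp on the right; joining under 1000 bp gave 0% for both by construction, and on the right a median width of 795 bp and strength of 6.29. Gap limits of 500 and 2000 bp gave 22.6% and 55.9% on the left and 23.5% and 53.9% on the right. The settings without the thinnest piece and with other gap limits were added after the data were seen. Tiling windows from the other end placed the left domain 10 and 6 and the right domain 9 and 11 by density and covered length.

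No paired analysis was possible because the list has no value per sample, and for the same reason leaving out a replicate was not run. Peaks along a chromosome are not replicates, and all intervals cover counting error only. Depth, mappability and repeat content were not measured here. Boundaries of the domains were taken as given, and no piRNA gene was placed on WS190.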

Other observations

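Peaks on either side of the longest empty stretches ranged from weak to strong. The 182 kb stretch of the left domain began after a peak of strength 39.8 and ended at one of 30.3, and the 219.6 kb stretch of the right domain began after 28.6 and ended at 12.5. The 240.2 kb stretch lay between peaks of 14.5 and 33.4, and the 239.6 kb stretch between 3.17 and 9.0. The 135 kb stretch of the left domain lay between weak peaks, of 3.08 and 3.85. In all, 9 of the 13 stretches of at least 100 kb on IV lay in the domains, which make up 35.5% of its span, and so did the 5 longest. With 7 such stretches the right domain came 3 of 13 among windows of 3.7 Mb on II, III and V, of which the highest had 12. Among the windows matched for position it came 4 of 7, and the highest of these had 13.

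The relation of strength to width was much the same in each region. Spearman's rho across peaks, which share 1 list and are not independent, was 0.71 in the left domain (262 peaks), 0.71 in the right domain (231) and 0.74 in the rest of IV (1413). In the right part of the right domain, the last piece of 740 kb, 55% of gaps were under 1 kb and the median gap was 877.5 bp, next to the thin piece in which the median gap was 13509 bp. In the left domain the corresponding shares ran from 25.7% in the fourth piece to 53.5% in the second.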
